A study of Harpegnathos saltator with 27 samples.

Results

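HsOr60, HsOr61, HsOr201, HsOr202, HsOr247, and HsOr370 are 6 odorant receptor (Or) genes of the jumping ant Harpegnathos saltator that the study names for expression kept in adult orco mutant antennae or seen outside olfactory neurons. They are 6 of the 377 Or genes in the study's annotation and of 14407 genes in the count files, and all 6 passed the minimum for testing, a mean count of 10 over the 27 libraries. The study names them from adult antennae. They were taken up here with earlier results of the pupal libraries known. Polyadenylated RNA from antennae of WT and orco mutant pupae was sequenced at 4 stages, D10, D15, D20, and D25, named for the days after puparium formation (APF). There are 15 WT libraries, 3 at D10 and 4 at each later stage, and 12 mutant libraries, 3 at each stage. The mutants carry a mutation of orco made by genome editing. The labels do not give its allele, the sex or caste of the pupae, or how many pupae made up a library, so p-values measure the spread between these libraries, which may be technical.

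An insect odorant receptor is a tuning receptor, which binds the odorant, joined to the co-receptor Orco in an ion channel on the dendrite of an olfactory receptor neuron (ORN). Each ORN typically expresses 1 tuning Or gene together with orco. Ants have a large Or family, most of which lies in tandem arrays of neighboring paralogs. The antenna also holds support cells, which enclose the dendrites and secrete the lymph around them, and glia, which wrap the axons. In the study's annotation, HsOr60 and HsOr61 open an array of 19 Or genes, HsOr202 and HsOr201 open an array of 11, HsOr247 ends an array of 8 and HsOr370 stands alone. The study links each of these sites to a non-Or gene nearby. These are LOC105183707 for HsOr60 and HsOr61, LOC105190781 for HsOr202 and HsOr201, LOC105190442 for HsOr247, and LOC105192289 and LOC105192294 for HsOr370. RefSeq's annotation of Hsal_v8.6, the assembly used for mapping, gives LOC105183707, LOC105190781, LOC105190442, and LOC105192289 as protein-coding genes on scaffolds with no chromosome assigned. Outside neurons, the study assigns HsOr370 to support cells, HsOr202 and HsOr201 to glia, and HsOr60, HsOr61, and HsOr247 to unidentified cells. It reports HsOr61, HsOr202, HsOr247, and HsOr370 in neurons as well, and Or levels outside neurons that tended to be lower than in ORNs. The bulk counts used here do not separate these sources.

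Libraries held 3454610 to 52275933 counts on genes, and 3 counts corresponded to 0.993 to 13.8 normalized counts, so values of a few normalized counts rest on single reads. HsOrco transcript was present in every library of the mutants, at 3239.8 to 12378 normalized counts at D10 and 237 to 464 at D25, against 2562 to 4248 and 1959.7 to 6027 in WT, so the amount of transcript does not by itself separate the genotypes at D10. Of 3 sequencing batches in the labels, the first holds most WT libraries and the last all mutant libraries of D25 with 1 WT library of that stage. The remaining batch holds only mutant libraries, replicates 2 and 3 of D10 and replicate 1 of D15, at 3454610 to 6717868 counts on genes. Genotype and batch are thus partly confounded at D10 and D15 too. Of 14 cell type markers, 2 were lower in mutants at D20 by the test, and 3 were lower and 1 higher at D25. None of the 14 was at 0 throughout a group of D20 or D25. Their summed normalized count was 13600.9 to 38110.4 in mutants and 26625 to 39959 in WT at D20, and 43119 to 55371 against 30361 to 60269 at D25. In bulk antennae, fewer cells of a type and less RNA per cell cannot be told apart.

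In WT antennae, HsOr247 and HsOr370 rose from D10 to D15, and no later change of the 6 genes passed the test. HsOr247 had 44.5, 40.4, and 72.9 normalized counts at D10 and 220.0, 201, 132, and 136 at D15. Every D15 library lay above every D10 library, with a log2 fold change of 1.66 (SE 0.31, adjusted p = 0.000581 by edgeR's quasi-likelihood test with Benjamini-Hochberg adjustment over 11086 genes, used for all adjusted p-values below unless stated). HsOr370 had no read in the 3 WT libraries of D10 and 14.3 to 137 normalized counts in the 4 of D15, with a mean of 63.8 ± 51.8 (SD). Against the 3 counts that a result of 0 allows over the group, its level at D15 was at least 92.8-fold higher (adjusted p = 0.000132). Thus 2 of the 6 rose from D10 to D15, beside 15.2% of all genes tested. The other 4 had log2 fold changes of −0.33 (HsOr201) to 1.72 (HsOr61) and did not pass. From D15 to D20, 0 of 6 changed, beside 11.6% of all genes, and from D20 to D25, 0 of 6 changed, beside 0.00902%. In both intervals, 0 of 6 had an unadjusted p under 0.05 and DESeq2's test also called 0.

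**Figure D1:**
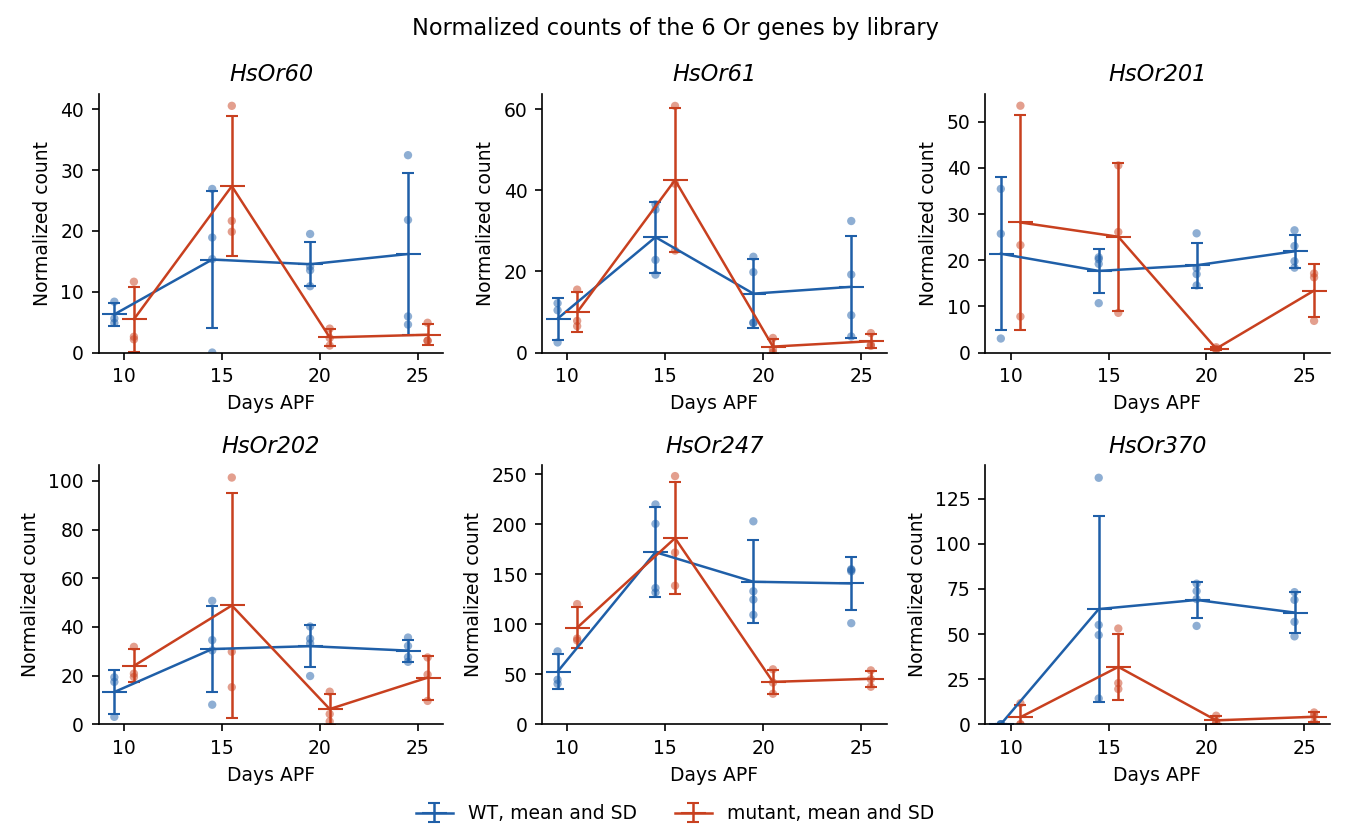
Normalized count (y axis, linear from 0) of each of the 6 Or genes against days APF, with 1 point per library, WT in blue and mutant in red, and lines and bars for the group mean and SD (n = 3 or 4). At D20, all mutant libraries are below all WT libraries for all 6 genes, and at D25 the mutant mean is 63.3% of the WT mean for HsOr202 and 61.2% for HsOr201.

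At D10 and D15, no difference between mutants and WT passed the test in the 6 genes. At D10, 0 of 6 passed, beside 0.198% of all genes, and 2 of 6 had an unadjusted p under 0.05. One of these was HsOr247, at 83.9, 85.8, and 120.2 normalized counts in mutants against 40.4 to 72.9 in WT. HsOr202 was at 19.4 to 31.8 in mutants and 3.04 to 19.3 in WT. Its lowest mutant value was 5 reads in mutant D10 replicate 3, where 1 read is worth 3.88 normalized counts. The gap to the highest WT library was thus smaller than 1 read. The other gene with an unadjusted p under 0.05 was HsOr370. It had 3 reads in 1 mutant library and none in the other 2, which is at the detection limit in both genotypes. The lowest adjusted p of the 6 genes was 0.567. At D15, 0 of 6 passed, beside 0.00902%, and 0 of 6 had an unadjusted p under 0.05. DESeq2's test called 0 at both stages. Log2 fold changes of mutants over WT at D15 ran from −1.01 for HsOr370 (95% interval −2.62 to 0.60) to 0.77 for HsOr60 (−0.77 to 2.31). A severalfold lower level of HsOr370 and a severalfold higher level of HsOr60 are thus within their intervals. The interval of HsOr247 was narrower, −0.54 to 0.68. In mutants, HsOr370 rose from D10 to D15 by 3.78 on the log2 scale (adjusted p = 0.0410), which made 1 of 6 that rose, beside 5.71% of all genes. Over the pooled reads, 3 at D10 and 198 at D15, the ratio was 22.8 with a 95% counting interval of 7.69 to 111. This call was lost without mutant D10 replicate 1 or 2 or any of the 3 mutant D15 libraries, with adjusted p-values of 0.0543 to 0.237. It was also lost with sequencing batch in the model (0.0505), with scaling by library size alone (0.0605), and with only the groups compared (0.137). DESeq2's test called 4 of 6. The change from D10 to D15 differed between genotypes for 0 of 6 genes (1 with an unadjusted p under 0.05, 0 by DESeq2's test), beside 0.00902% of all genes.

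All 6 genes fell in mutant antennae between D15 and D20. HsOr247 went from 248, 139, and 172 normalized counts to 55.0, 41.7, and 30.5, a log2 fold change of −2.13 (SE 0.33, adjusted p = 0.000102). HsOr61 went from 60.8, 25.1, and 41.6 to 0, 0.787, and 3.59, and HsOr201 from 40.6, 8.6, and 26.1 to 1.15, 0.787, and 0.599. In neither gene did any D20 library reach the lowest D15 library. The log2 fold changes were −4.58 (SE 0.85, adjusted p = 0.000541) and −4.73 (SE 0.87, adjusted p = 0.000482). HsOr60 (−3.33), HsOr202 (−2.86), and HsOr370 (−3.86) had adjusted p-values of 0.0119, 0.0123, and 0.00798. The 6 of 6 that fell stand beside 10.8% of all genes, and 6 of 6 also passed with sequencing batch in the model. The call of HsOr202 was lost without mutant D15 replicate 1, the highest library at 101 normalized counts (adjusted p = 0.10), without mutant D20 replicate 1 or 3 (0.0533 and 0.0585), and with only the groups compared (0.137).

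The fall was larger in mutants than in WT for 2 of the 6 genes by the test of the difference itself, beside 2.43% of all genes. HsOr201 changed by 0.08 in WT from D15 to D20 and by −4.73 in mutants, a difference of −4.81 on the log2 scale (SE 1.03, adjusted p = 0.0104). HsOr247 changed by −0.28 in WT and by −2.13 in mutants, a difference of −1.85 (SE 0.42, adjusted p = 0.0162). The call of HsOr201 was lost without mutant D20 replicate 3 (adjusted p = 0.0537), and that of HsOr247 without mutant D15 replicate 1 or mutant D20 replicate 3 (0.0663 and 0.0694), or with only the groups compared (0.0646). The other 4 genes had differences of −2.91 to −3.95 and adjusted p-values of 0.0630 to 0.181. All 6 had an unadjusted p under 0.05. DESeq2's test called 4 of 6, adding HsOr61 and HsOr370.

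At D20, every mutant library was below every WT library in all 6 genes, as it was in 8.29% of all genes tested, and 4 of the 6 were lower by the test, beside 3.99%. HsOr370 had 1.15, 4.72, and 0.599 normalized counts in mutants and 69.4, 54.5, 73.8, and 77.9 in WT. Its log2 fold change of −4.97 (SE 0.99, adjusted p = 0.00331) was the lowest of the 6. HsOr201 had 1 read in each of the 3 mutant libraries against 14.5 to 25.8 normalized counts in WT, and the ratio of WT to mutant over the pooled reads was 23.9, with a 95% counting interval of 7.88 to 119 that covers counting error alone. HsOr201 was called at a log2 fold change of −4.41 (SE 0.84, adjusted p = 0.00183). HsOr247 had 30.5 to 55.0 normalized counts in mutants and 109 to 203 in WT, the smallest of the 6 changes at −1.78 (SE 0.31, adjusted p = 0.000978). HsOr61 was lower by 3.11 on the log2 scale (−3.11, SE 0.80, adjusted p = 0.0230), a call lost without WT D20 replicate 1 or 4 or mutant D20 replicate 1 or 2 (adjusted p of 0.0551 to 0.145) and with only the groups compared (0.131). HsOr60 (−2.50, SE 0.87, adjusted p = 0.127) and HsOr202 (−2.36, SE 0.75, adjusted p = 0.0819) did not pass. HsOr60 passed with only the groups compared (−2.48, adjusted p = 0.0388), and HsOr202 by DESeq2's test (−2.34, adjusted p = 0.0216), which called 5 of 6. HsOr202 had 13.4 normalized counts in mutant D20 replicate 2, against 1.15 and 4.19 in the other 2, and passed without that library (−3.47, adjusted p = 0.0351). Within the first sequencing batch, with 3 WT and 1 mutant library of D20, the log2 ratio of mean normalized counts plus 1 was −1.14 for HsOr247 and −4.96 for HsOr370, the extremes of the 6 genes. Within the last batch, with 1 WT and 2 mutant libraries, it was −2.07 (HsOr202) to −4.43 (HsOr370).

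At D25, HsOr61, HsOr247, and HsOr370 were lower in mutants by the test, and HsOr60, HsOr201, and HsOr202 did not pass. The genes were not tested against each other. HsOr247 had 45.1, 53.9, and 37.5 normalized counts in mutants and 154, 155, 101, and 153 in WT. The groups did not overlap, with a log2 fold change of −1.64 (SE 0.31, adjusted p = 0.00126) and a mutant mean at 32.3% of the WT mean. HsOr370 had 0.959, 4.90, and 6.53 normalized counts in mutants and 48.7 to 73.2 in WT, again without overlap, with a log2 fold change of −3.86 (SE 0.92, adjusted p = 0.00901). HsOr61 had 4.79, 1.96, and 1.63 normalized counts in mutants and 3.96, 19.2, 9.19, and 32.4 in WT. The groups overlapped in 1 library each, and the log2 fold change was −2.61 (SE 0.78, adjusted p = 0.0280). HsOr60 had 1.92, 1.96, and 4.89 normalized counts in mutants and 5.94, 21.8, 4.60, and 32.4 in WT, with a log2 fold change of −2.54 (SE 0.87, adjusted p = 0.0503). Thus 3 of 6 were lower at D25, beside 11.3% of all genes, and in 3 of 6 every mutant library was below every WT library, beside 12.0%. All 6 log2 fold changes were negative, and none was among the 5.18% of all genes that were higher. DESeq2's test called 4 of 6 lower. Without mutant D25 replicate 1, HsOr61 (adjusted p = 0.0502) and HsOr370 (0.0596) did not pass and the count was 1. HsOr61 was also lost without WT D25 replicate 4 or mutant D25 replicate 2 or 3 (0.0575 to 0.104) and with only the groups compared (0.0991). HsOr60 passed by DESeq2's test (−2.57, adjusted p = 0.0221), with sequencing batch in the model (−2.98, 0.0417), and with scaling by library size alone (−3.16, 0.00738). Within the last batch, with 1 WT and 3 mutant libraries, the log2 ratio of mean normalized counts plus 1 was −3.49 for HsOr370, −3.14 for HsOr61, −3.09 for HsOr60, −1.73 for HsOr247, −0.93 for HsOr201, and −0.50 for HsOr202.

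HsOr201 rose in mutants from D20 to D25, and HsOr202, its neighbor in the array, had a smaller change that did not pass. HsOr201 went from 1.15, 0.787, and 0.599 normalized counts to 16.3, 6.86, and 17.1, which is from 3 reads to 45 over the 3 libraries and a ratio of 17.4 with a 95% counting interval of 5.58 to 87.5. Every D25 library was above every D20 library, with a log2 fold change of 3.92 (SE 0.86, adjusted p = 0.0145), and HsOr201 was the 1 of 6 that rose, beside 1.73% of all genes. The call was lost without mutant D20 replicate 2 or 3 or mutant D25 replicate 1 or 3, with adjusted p-values of 0.0524 to 0.0861 and log2 fold changes of 3.70 to 3.90. HsOr202 went from 1.15, 13.4, and 4.19 to 9.59, 27.4, and 20.4, and its groups overlapped (1.60, SE 0.77, adjusted p = 0.308). At D25, HsOr201 was at 18.4 to 26.5 normalized counts in WT, above all 3 mutant libraries, with a log2 fold change of −0.73 (95% interval −2.05 to 0.60, adjusted p = 0.428). HsOr202 was at 25.6 to 35.6 in WT and overlapped the mutants, with a log2 fold change of −0.65 (−2.11 to 0.80, adjusted p = 0.521). Neither passed, and both intervals still hold a 4-fold lower level in mutants. The change from D20 to D25 in HsOr201 differed between genotypes by 3.68 (SE 1.03), but with an adjusted p of 0.197, and 0 of 6 genes passed that test, beside 0.0541% of all genes (1 with an unadjusted p under 0.05, 0 by DESeq2's test). HsOr201 passed it with scaling by library size alone (3.03, adjusted p = 0.0476) and with only the groups compared (3.64, 0.0435). For HsOr202, 34.5% of the reads counted on single strands are missing from the unstranded count, where reads that overlap a gene on the other strand are set aside. With both strand columns summed, its log2 fold change at D25 was −0.96 (adjusted p = 0.330).

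Set among all 360 Or genes tested, the 6 were spread over the ranking at D20 and stood in its upper part at D25. At D20, the median log2 fold change was −2.80 for the 6 genes and −3.57 for all 360, of which 230 were lower. Ranked from the highest, HsOr247 was at 74, HsOr202 at 106, HsOr60 at 112, HsOr61 at 147, HsOr201 at 249, and HsOr370 at 287. At D25, the median was −2.09 for the 6 and −5.12 for all 360, or −4.84 with the 64 Or genes without a mutant read set at their bound. Of the 360, 303 were lower and 2 higher. The ranks were then 21 for HsOr202, 24 for HsOr201, 45 for HsOr247, 70 for HsOr60, 74 for HsOr61, and 125 for HsOr370. HsOr201 thus moved from 249 to 24. The study lists 76 other Or genes in cells other than ORNs, of which 74 were tested. Their medians were −3.11 at D20 (44 lower) and −3.65 at D25 (57 lower, 1 higher), below those of the 6 genes. The 2 Or genes higher in mutants at D25 were HsOr4 (20.9 normalized counts in WT and 69.9 in mutants, log2 fold change 1.69, SE 0.57, adjusted p = 0.0468) and HsOr161 (129 and 357, 1.45, SE 0.42, adjusted p = 0.0252). The call of HsOr4 was lost in 6 of the 7 fits without 1 library and that of HsOr161 in 4 of 7, and both were lost with sequencing batch in the model (0.194 and 0.0602) and with scaling by library size alone (0.180 and 0.159). HsOr4 was also lost with no filter (0.0589), with replicate number as a block (0.0505), and with only the groups compared (0.120).

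**Figure D2:**
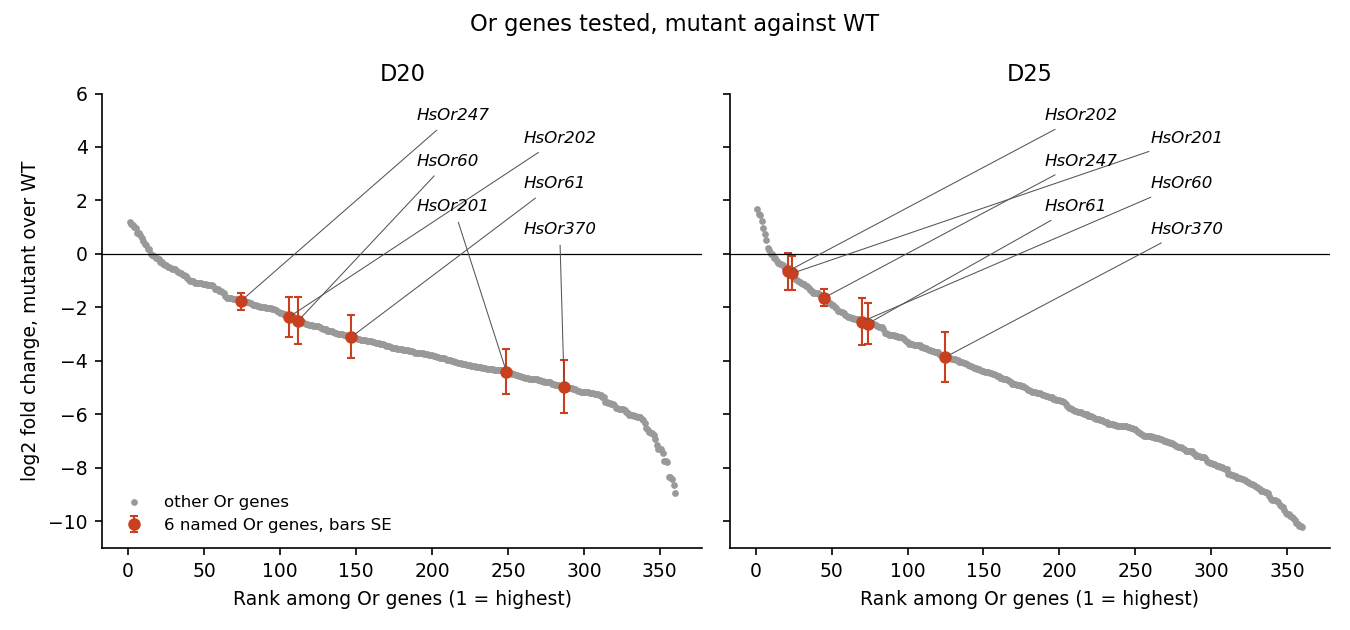
Log2 fold change of mutants over WT (y axis) for the 360 Or genes tested, ordered from the highest (x axis, rank), at D20 and D25. The 6 named genes are in red with SE bars, from rank 74 to 287 at D20 and from rank 21 to 125 at D25, and HsOr201 and HsOr202 lie within 1 log2 unit of 0 at D25.

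Within the 3 arrays, the 5 named genes were those with the highest log2 fold changes at D25, and they hold the end of the array next to the linked non-Or gene. In the array of 8, HsOr247 was at −1.64 and the adjacent HsOr248 at −5.35 (SE 0.67, adjusted p = 2.39e-05), with 55.7 to 110.3 normalized counts in WT and 0.959, 0, and 4.08 in mutants. The lowest of that array was HsOr250, with 1 mutant read against 422 in WT, a ratio of WT to mutant of 414 with a counting interval of 73.9 to 16392. The median log2 fold change of the 7 other genes was −6.81. In the array of 11, HsOr202 (−0.65) and HsOr201 (−0.73) were followed by HsOr200 at −2.97 (SE 0.76, adjusted p = 0.0120). HsOr200 had 23.8, 44.9, 32.2, and 51.4 normalized counts in WT and 1.92, 6.86, and 5.71 in mutants, without overlap. HsOr199, next in line, was at −2.18, the lowest was HsOr197 with 1 mutant read against 212 (ratio 208, counting interval 36.9 to 8254), and the far end, HsOr192, was at −2.83. The point estimates along this array thus did not fall steadily with distance, and the genes were not tested against each other. The study describes weaker expression with distance for HsOr202, HsOr201, and HsOr200 in adult glia. That is a measure unlike the ratio of mutants to WT in whole pupal antennae. In the array of 19, of which 18 genes were tested, HsOr60 (−2.54) and HsOr61 (−2.61) were hardly above HsOr66 at −2.62 (SE 0.72, adjusted p = 0.0185), the seventh gene in line. HsOr62, directly beside HsOr61, was at −4.96 (SE 0.74, adjusted p = 0.000121), with 16.7 to 32.4 normalized counts in WT and 1.92, 0, and 0 in mutants, which is 2 reads and a ratio of WT to mutant of 42.7 with a counting interval of 11.5 to 358. The lowest of this array was HsOr73, with no mutant read at D25, at least 53.6-fold lower than its WT mean of 48.9. At D20, HsOr247 was again set apart within its array, at −1.78 against a median of −4.68 over the 8 genes. HsOr201 at −4.41 was below the median of −3.45 of its own array at that stage. All of these genes are paralogs in tandem, and reads that map to more than 1 place are not in the counts, so reads shared by near-identical copies are missing from them.

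**Figure D3:**
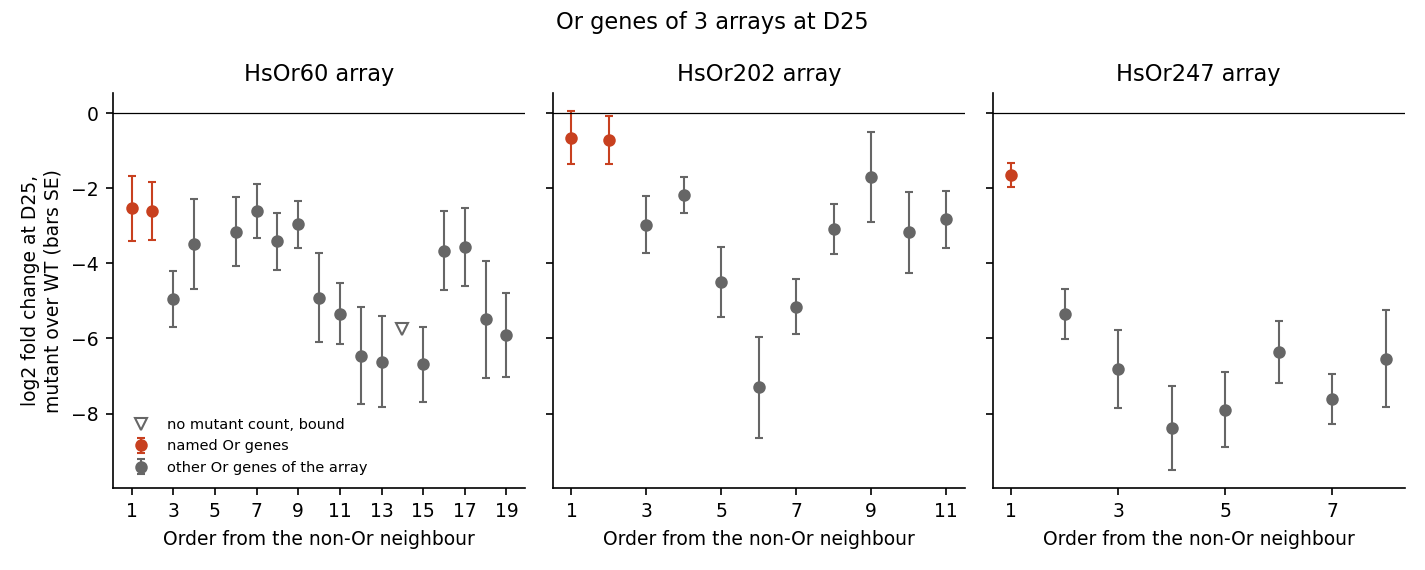
Log2 fold change of mutants over WT at D25 (y axis, SE bars) for the tested Or genes of 3 arrays, in order from the end beside the non-Or neighbor (x axis). The named genes, in red, are the highest of each array, and the open triangle marks HsOr73, which has no mutant read and is drawn at its bound of 53.6-fold.

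Relative to the other Or transcripts of the same library, 1 of the 6 genes took a larger share in mutants and 1 a smaller one. The share is the count of a gene as a percent of the summed counts of the 371 other Or genes, which does not depend on the scaling between libraries. HsOrco made up 5.43 to 25.3% of that sum in the libraries of D20 and D25. HsOr247 was at 0.586, 0.669, 0.429, and 0.831% in WT and 1.54, 0.720, and 0.600% in mutants at D20. At D25, it was at 0.596, 0.633, 0.405, and 0.607% in WT and 1.05, 1.33, and 0.861% in mutants. The groups overlapped at D20 and not at D25. Over both stages, the mean difference in log2 share was 0.74 (p = 0.00816, adjusted p = 0.0126, two-sided exact permutation test over 1225 arrangements within stage, adjusted over 360 Or genes). HsOr370 was at 0.289 to 0.319% in WT and 0.0322, 0.0815, and 0.0118% in mutants at D20, and at 0.199 to 0.283% and 0.0224, 0.121, and 0.150% at D25. It did not overlap at either stage and its mean difference was −2.16 (p = 0.000816, the smallest the permutations can give, adjusted p = 0.00171). With HsOrco left out of the sum, the mean difference was 0.76 for HsOr247 and −2.13 for HsOr370. In the 360 Or genes, 12.2% took a larger and 61.7% a smaller share, with a median difference of −1.91.

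For HsOr201, the share moved in opposite directions at the 2 late stages, so the mean over both says little. HsOr201 was at 0.0749 to 0.101% in WT and 0.0118 to 0.0322% in mutants at D20, and at 0.0737 to 0.105% and 0.169 to 0.393% at D25, with no overlap at either stage. HsOr202 was at 0.0873 to 0.188% in WT and 0.0322, 0.231, and 0.0824% in mutants at D20. The groups overlapped there, and the lowest mutant value is 1 read. At D25, HsOr202 was at 0.105 to 0.138% in WT and 0.224, 0.676, and 0.468% in mutants. The differences in log2 share were −1.70 at D20 and 1.75 at D25 for HsOr201, and −0.48 and 1.79 for HsOr202. These values at a single stage have no test. Over both stages, the permutation test gave adjusted p-values of 0.956 and 0.244, and 0.752 and 0.610 for HsOr60 (0.13) and HsOr61 (−0.32). Within the last sequencing batch, with 1 WT library at each stage, the mean difference was −2.18 for HsOr370 and 0.25 for HsOr247. No other batch holds both genotypes at both stages.

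**Figure D4:**
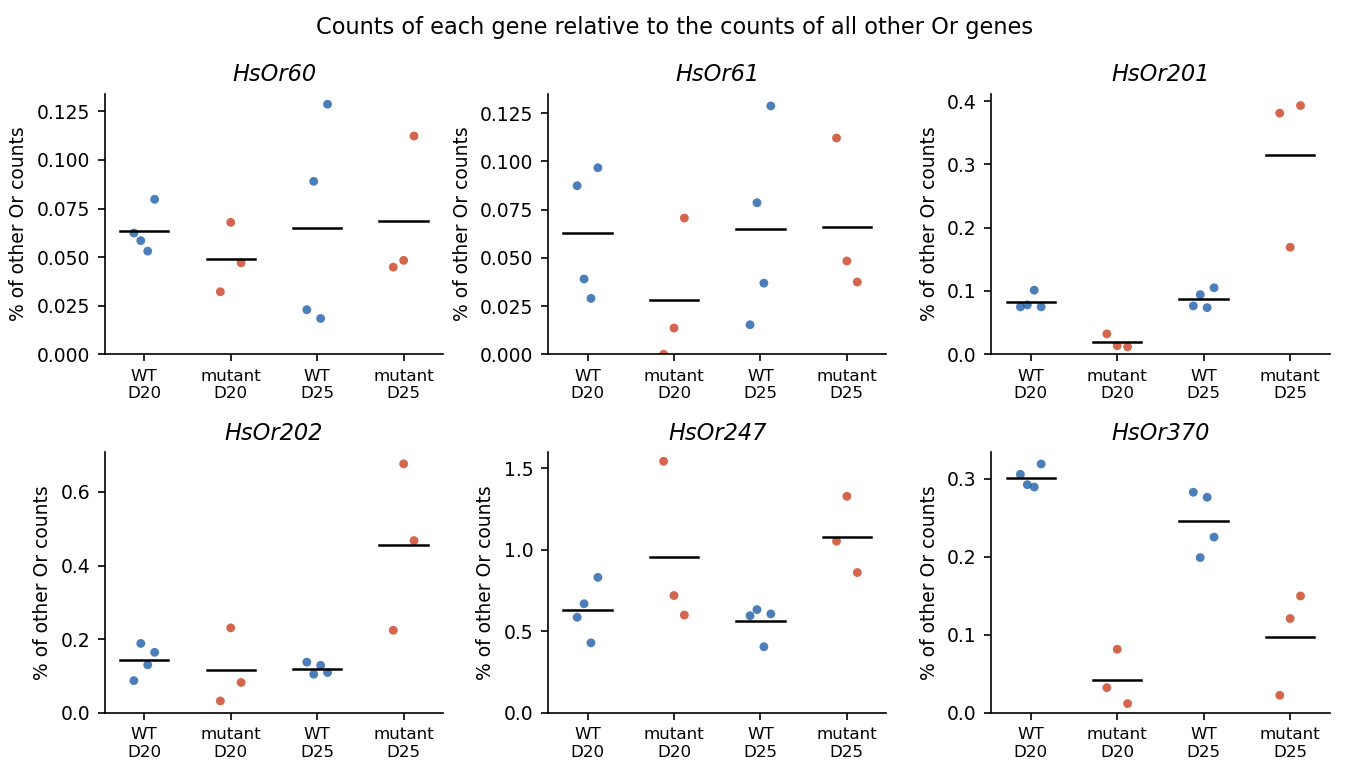
Count of each gene as a percent of the summed counts of the 371 other Or genes (y axis, linear from 0) in each library of D20 and D25, WT in blue and mutant in red, with the group mean as a black line. HsOr247 is higher in mutants at D25, HsOr370 lower at both stages, and HsOr201 and HsOr202 reach 0.169 to 0.676% in mutants at D25, above their WT libraries.

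In whole antennae, the non-Or genes linked to these Or genes shared at most parts of their courses. LOC105183707 and HsOr61 both had their highest means at D15 in each genotype, and LOC105192289 and HsOr370 were both lower in mutants at D25. The study's link rests on nearness and on shared expression in cells other than neurons, which levels of whole antennae do not resolve. At D20, the 5 had log2 fold changes of −0.75 (LOC105183707) to 1.05 (LOC105190781) and adjusted p-values of 0.405 to 0.991, and at D25, 1 was higher and 1 lower in mutants. LOC105190442, beside HsOr247, had 402, 1009, 644, and 699.6 normalized counts in WT at D25 and 1359, 1407, and 1126 in mutants, a log2 fold change of 0.91 (SE 0.26, adjusted p = 0.0217). No mutant library was below a WT library, while HsOr247 itself was at 32.3% of WT. LOC105190442 also rose in mutants from D20 to D25 (1.14, SE 0.28, adjusted p = 0.0265). With sequencing batch in the model, its D25 value was 0.60 (adjusted p = 0.188), and within the last batch alone the log2 ratio was 0.89. With scaling by library size alone it was 0.29 (adjusted p = 0.527), with only the groups compared 0.84 (0.130), and it also did not pass without WT D25 replicate 1 or 3 or mutant D25 replicate 1 or 2 (0.0606 to 0.0815). The rise was lost with library size alone (0.36, adjusted p = 0.373) and in 5 of 6 fits without 1 library, all but that without mutant D20 replicate 3, with adjusted p-values up to 0.105. LOC105192289, linked to HsOr370, had 109 to 202 normalized counts in WT at D25 and 58.8 to 76.7 in mutants (−1.19, SE 0.34, adjusted p = 0.0223), and was lost without WT D25 replicate 3 or mutant D25 replicate 1 or 2 (0.0717 to 0.0943) and with only the groups compared (0.0584). LOC105192294, also linked to HsOr370, had a log2 fold change of 0.41 (adjusted p = 0.453) at D25. LOC105190781, beside HsOr202, had 1.23 to 6.06 normalized counts in WT and 3.44, 6.30, and 13.2 in mutants at D20, and 4.60 to 19.2 and 13.1 to 21.1 at D25. It is thus close to its detection limit at the late stages, with log2 fold changes of 1.05 (adjusted p = 0.754) and 0.67 (0.664). LOC105183707, beside HsOr60 and HsOr61, had 2838 to 7519 normalized counts in WT at D15 and 530.4 to 1269 at D25, and 1109.7 to 1314 in mutants at D25 (0.45, adjusted p = 0.414).

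Among the cell type markers, the one nearest in course to HsOr201 and HsOr202 was α4GT1/2 (LOC105190591), which the study uses to mark support cells. It had 396, 423, 588, and 516 normalized counts in WT at D20 and 74.4, 81.8, and 87.4 in mutants (−2.59, SE 0.23, adjusted p = 2.24e-06). At D25, it had 536, 508, 629.8, and 602 in WT and 235, 209, and 218 in mutants (−1.37, SE 0.22, adjusted p = 0.000244). The groups did not overlap at either stage. From D20 to D25 it rose in mutants by 1.46 (SE 0.23, adjusted p = 0.00275), a call lost with scaling by library size alone (0.70, adjusted p = 0.0607). The other 3 support cell markers, sv, LOC105182650, and LOC105188530, did not pass at D20 or D25, and their directions were mixed. Log2 fold changes at D20 and D25 were 0.881 and 1.339 for sv, −1.877 and 0.098 for LOC105182650, and 0.154 and −0.549 for LOC105188530. The summed normalized count of the 4 was 7252 to 8643 in WT and 4345 to 7343 in mutants at D20, and 6054 to 46579 and 14673.5 to 23768.5 at D25. Of the 4 neuron markers, the synaptic gene nSyb was lower at D20 (−1.94, adjusted p = 3.19e-05) and at D25 (−1.52, adjusted p = 0.000102). Syt1, fne, and onecut did not pass. The 4 neuron markers summed to 9821 to 19136 in WT and 5417 to 8832 in mutants at D20, and to 7222 to 22159 and 8563 to 9936 at D25. The glial marker repo had log2 fold changes of 0.61 at D20 (adjusted p = 0.253) and 0.73 at D25 (0.0572). It passed at D25 without WT D25 replicate 4 (0.90, adjusted p = 0.0155), by DESeq2's test (0.73, 0.0425), and with replicate number as a block (0.95, 0.00193). It was at 0.27 (0.467) with sequencing batch in the model and at 0.11 (0.85) with scaling by library size alone. HsOrco was lower at D25 (−3.42, SE 0.51, adjusted p = 0.000121) and not by the test at D20 (−1.38, adjusted p = 0.110). The muscle gene Mhc was higher at D25 (2.71, SE 0.79, adjusted p = 0.0253), a call lost in 5 of 7 fits without 1 library. That call was also lost with sequencing batch in the model (0.0972) and with only the groups compared (0.115). The part of these cell types in the levels of the 6 genes was not tested.

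The genes whose course over the 8 groups was most like that of each of the 6 were taken by the SD of the difference in mean log2(normalized count + 1), a description over 8 group means with no test. HsOr247 stood closest to LOC105190219, annotated by RefSeq as a lncRNA, with an SD of 0.055 log2 units. LOC105190219 had means of 205, 734, 601, and 564 normalized counts in WT from D10 to D25 and 366, 766, 175, and 183 in mutants. The next 2 genes, LOC105185796 and LOC112589362, were at 0.24. α4GT1/2 was the gene most like both HsOr201 (0.42) and HsOr202 (0.39) among 11085 genes. It was followed by HsOr180 and LOC109504100 for HsOr201, and by LOC105187850 and LOC105185442 for HsOr202. For HsOr60 the closest were HsOr256 (0.43), HsOr46, and LOC105192338, and for HsOr61 they were HsOr321 (0.44), LOC105183315, and HsOr192. HsOr370 had LOC112590016 (0.62), HsOr70, and HsOr182.2, and no gene as close as the others had. Of the 17 genes so named, 7 are Or genes. Of the non-Or neighbors, LOC105183707 was at rank 146 in the list of HsOr61 and at 4527 in that of HsOr60, and the others ranked from 7827 (LOC105190442 for HsOr247) to 10641 (LOC105192289 for HsOr370). Within the 6, HsOr202 was at rank 4 in the list of HsOr201, HsOr247 at rank 10 in that of HsOr202 and at rank 12 in that of HsOr60, and HsOr370 ranked between 9318 and 10260 in the lists of the other 5. The ranking depended on the scale: of the 18 places, 6 were kept when likeness was taken over the 27 libraries and 3 with a pseudocount of 10.

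**Figure D5:**
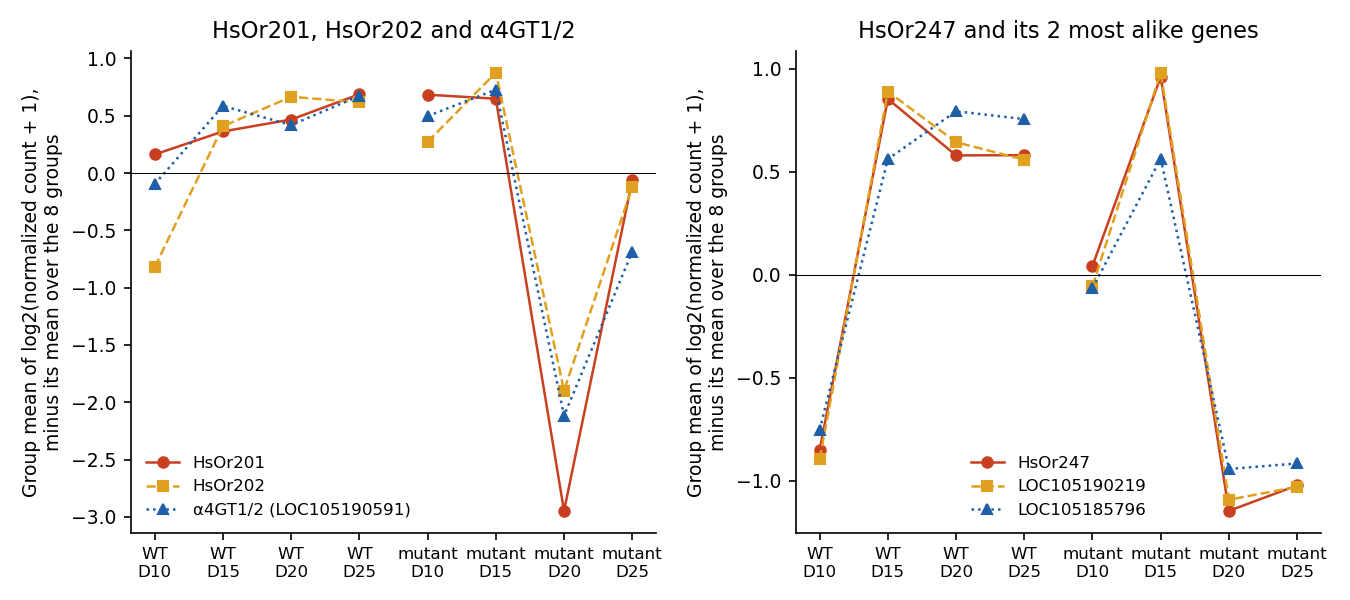
Group means of log2(normalized count + 1), each gene centered on its mean over the 8 groups (y axis), for WT and mutant D10 to D25 (x axis). In these means, HsOr201, HsOr202, and α4GT1/2 share a low in mutants at D20 and a partial return at D25, which did not pass the test for HsOr202. HsOr247 and LOC105190219 stay near their D20 level, differing from each other with an SD of 0.055.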

How the data were processed

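Antennal RNA-seq libraries of H. saltator pupae (15 WT, 12 mutant) were used. The authors mapped reads with STAR 2.6.1d, trimming 1 sequencing batch with longer reads, and deposited counts of uniquely mapped reads per gene. They also deposited the counts divided by DESeq2 1.34.0 size factors, a normalized signal used here for levels. Gene rows left out 2.86 to 33.2% of reads as unmapped, 0.900 to 3.24% as multimapping, 6.34 to 20.1% as outside genes, and 1.36 to 4.13% as ambiguous. The first strand column held 49.9 to 50.7% of strand counts, so overlapping genes on opposite strands are not separated.

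The 11086 genes that averaged 10 or more counts were fitted with edgeR 4.0.16 (R 4.3.3, TMM, quasi-likelihood, 8 groups) and p-values adjusted by Benjamini-Hochberg over them, with 0.05 as threshold. Levels of different genes were not compared. Shares used a pseudocount of 0.5 (Python 3.11.15). DESeq2 1.42.0, other scalings and filters, batch, replicate number, and leaving out each library were alternatives. Scripts were tested on simulated data. The 6 genes and all lists were chosen with earlier results of these data known. The genes named are the 6, their linked genes and array neighbors, the markers, Or genes higher in mutants, and the 3 genes most like each. Between replicates, counts differed more than sampling noise in all 33 pairs (chi-square per degree of freedom at least 20.3).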

Additional observations from a re-analysis of the deposited data

Results flagged for a closer look

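In 33 groups of 4 WT libraries (11 genes at 3 stages), 4 had a library far from the other 3, where chance alone gives about 1 in 20 groups. HsOr201 was at 10.7 normalized counts in WT D15 replicate 2 and at 19.2 to 20.6 in the others. HsOr247 was at 101 in WT D25 replicate 3 and at 153 to 155 in the others. That library had 30.6% of its reads unmapped and held 22 reads of HsOr247. LOC105190781, beside HsOr202, was at 57.6 in WT D15 replicate 3 and at 0 to 4.30 in the others. LOC105192289, linked to HsOr370, was at 149.99 in WT D20 replicate 4 and at 90.9 to 98.4 in the others. WT D20 replicate 4 is the only WT library of D20 in the last sequencing batch. The change from D15 to D20 differed between genotypes for HsOr201, by −4.81 on the log2 scale (adjusted p = 0.0104 by edgeR's quasi-likelihood test), and for HsOr247, by −1.85 (adjusted p = 0.0162).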

How the results depend on the processing

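Under settings other than leaving out a library, 491 recomputed values kept their direction and side of the threshold (or size, for counts), 22 calls were lost, 11 gained, 13 values moved and 4 reversed. Without 1 library, 478 kept them, 51 calls were lost, 5 gained, 12 values moved and 7 reversed. The cause of the exceptions was not tested. Scaling by library size alone set the median over all genes at −0.63 (log2) at D25 and at −0.80 (WT) and −0.87 (mutants) from D15 to D20. Under it, 2 of the 6 genes changed from D15 to D20 in WT, 0 rose from D10 to D15 in mutants, 1 had a change from D20 to D25 that differed between genotypes, and LOC105183707 (−0.11) and LOC105192294 (−0.20) were negative at D25. LOC105192294 was also negative with sequencing batch in the model (−0.11). DESeq2's test called 4 genes that rose from D10 to D15 in mutants and 4 whose fall to D20 was larger in mutants. With only the groups compared, these counts were 0 and 1, 0 genes rose from D20 to D25 in mutants, and 1 had a differing change from D20 to D25. HsOr201 was then under the minimum count in that rise and gave no value. The share of HsOr61 differed by 0.063 with the other Or genes of cells other than ORNs left out of the sum. Of 18 places in the likeness lists, 6 were kept over the 27 libraries and 3 with a pseudocount of 10. Without 1 library, the number of genes lower in mutants was 3 to 4 at D20 and 1 to 3 at D25, the number that rose in mutants was 0 to 1 from D10 to D15 and 0 to 1 from D20 to D25, 5 to 6 fell from D15 to D20, and 1 to 3 fell more than in WT. The share difference then ran from −0.043 to 0.34 for HsOr60 and from −0.20 to 0.21 for HsOr201. With replicate number as a block, 4 genes were lower at D20 and 3 at D25, 6 fell and 1 rose later in mutants, and 2 fell more than in WT. Whether the numbers pair the libraries is not settled. Correlations of deviations between same-numbered libraries ran from −0.387 to 0.477, with 3 of 12 over 0.1, and groups of 3 or 4 libraries are too small to decide. In the smallest library, mutant D10 replicate 3 with 3454610 counts on genes, 3 counts are worth 11.6 normalized counts, and they are worth 1.80 to 3.44 in the mutant libraries of D20 and D25, near the levels of HsOr60, HsOr61, and HsOr370 there.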
